A study of Mus musculus with 6 samples.

Results

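Neurogranin, the calmodulins and the calmodulin-dependent kinases were followed in the degenerating retina through 9 genes: Nrgn, Pcp4, Calm2, Calm3, Camk2a, Camk2b, Camk2d, Camk2g and Camk4. Their probes are all those on the array whose single annotated symbol is one of these genes, 29 of 45281. The set was built around Nrgn, which was chosen by its difference between 2 and 8 months on these same arrays. The age differences of the 9 genes are therefore given as a description, with their standard errors and intervals and with no test.

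RNA came from central retina of rd1/rd1 mice, 3 samples at 2 months and 3 at 8 months of age. All 6 samples carry the rd1 mutation, a defect of the rod phosphodiesterase subunit Pde6b that kills rods and then cones, and no animal was treated, so age is the only difference between the groups that the labels give. A sample was a pool of 3 to 6 tissue punches with a diameter of 1.5 mm. The number of animals in a pool is not stated, and the spread between samples is that between pools. Replicate numbers here are those of the sample titles, whereas the descriptions give 2 month replicates 1 and 2 the same number, and whether these came from 1 pool is not stated. Illumina bead arrays measured 1 deposited log2 intensity per probe and sample, and the number of arrays limits the precision.

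Calmodulin is the calcium sensor that carries calcium signals to many enzymes in neurons. Neurogranin and Pcp4 are small proteins with an IQ motif, a short calmodulin-binding segment, and neurogranin holds calmodulin while calcium is low and lets it go when calcium rises. Free calcium-bound calmodulin switches on CaMKII, a kinase built of alpha, beta, gamma and delta subunits that is central to synaptic plasticity, and, with the help of CaMK kinases, CaMKI and the nuclear kinase CaMKIV, which phosphorylates the transcription factor CREB. In the mammalian retina the alpha subunit of CaMKII is known from amacrine and ganglion cells.

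The lowest value on the arrays was 6.98 on the log2 scale and the median 7.19, so that values close to the median lie near the bottom of the range, called background here. A probe was kept when it lay above the median of its array on at least 3 arrays. This left 22 of the 29 probes, at least 1 for each of the 9 genes, and 12046 tested genes in all, each represented by its brightest kept probe. Some samples stood apart. The skeletal muscle list (7 of 10 genes tested) was at 1.14 above its mean over the 6 samples in 2 month replicate 2, against −0.43 to 0.27 in the other 5. The pigment epithelium and red blood cell lists were also highest there, at 0.70 and 1.12. Xist, the RNA that silences an X chromosome in females, had values of 9.40 and 8.73 at its brightest probe in 2 month replicates 1 and 2 and at 10.5 to 11.1 in the other 4 samples. The Y-linked gene Eif2s3y was at 7.79 and 8.27 at its brighter probe in those 2 samples and at 7.10 to 7.18 in the rest. The pools of 2 months thus did not all match those of 8 months in sex-linked genes.

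Nrgn, the neurogranin gene, had 1 probe, and it had the largest difference of the 9 genes. It was at 8.19, 8.19 and 8.17 in 2 month replicates 1, 2 and 3 and at 8.99, 8.83 and 9.01 in 8 month replicates 1, 2 and 3. The ages did not overlap, and the lowest 8 month sample lay well above all samples of 2 months. The mean went from 8.18 ± 0.0083 to 8.94 ± 0.10 (SD, n = 3), a difference of 0.76 (SE 0.061, 95% interval 0.62 to 0.90), or 1.69-fold (1.53 to 1.87). The 2 month samples were unusually close to each other. The SD of 0.0083 compares with a median of 0.0762 over the 12046 tested genes, and 1.08% of those genes had one as small. By the rule used for all genes (limma, Benjamini-Hochberg adjusted p below 0.05) 1 of the 9 genes was called higher, Nrgn, beside 0.158% of tested genes higher and 0.0664% lower at 8 months. Since this contrast chose the gene, that count is no test of it and nothing is read from it. The difference was 0.72 to 0.82 with 1 sample left out. In the 4 samples alike in sex-linked genes, which hold 1 sample of 2 months, it was 0.77 (SE 0.098).

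**Figure D1:**
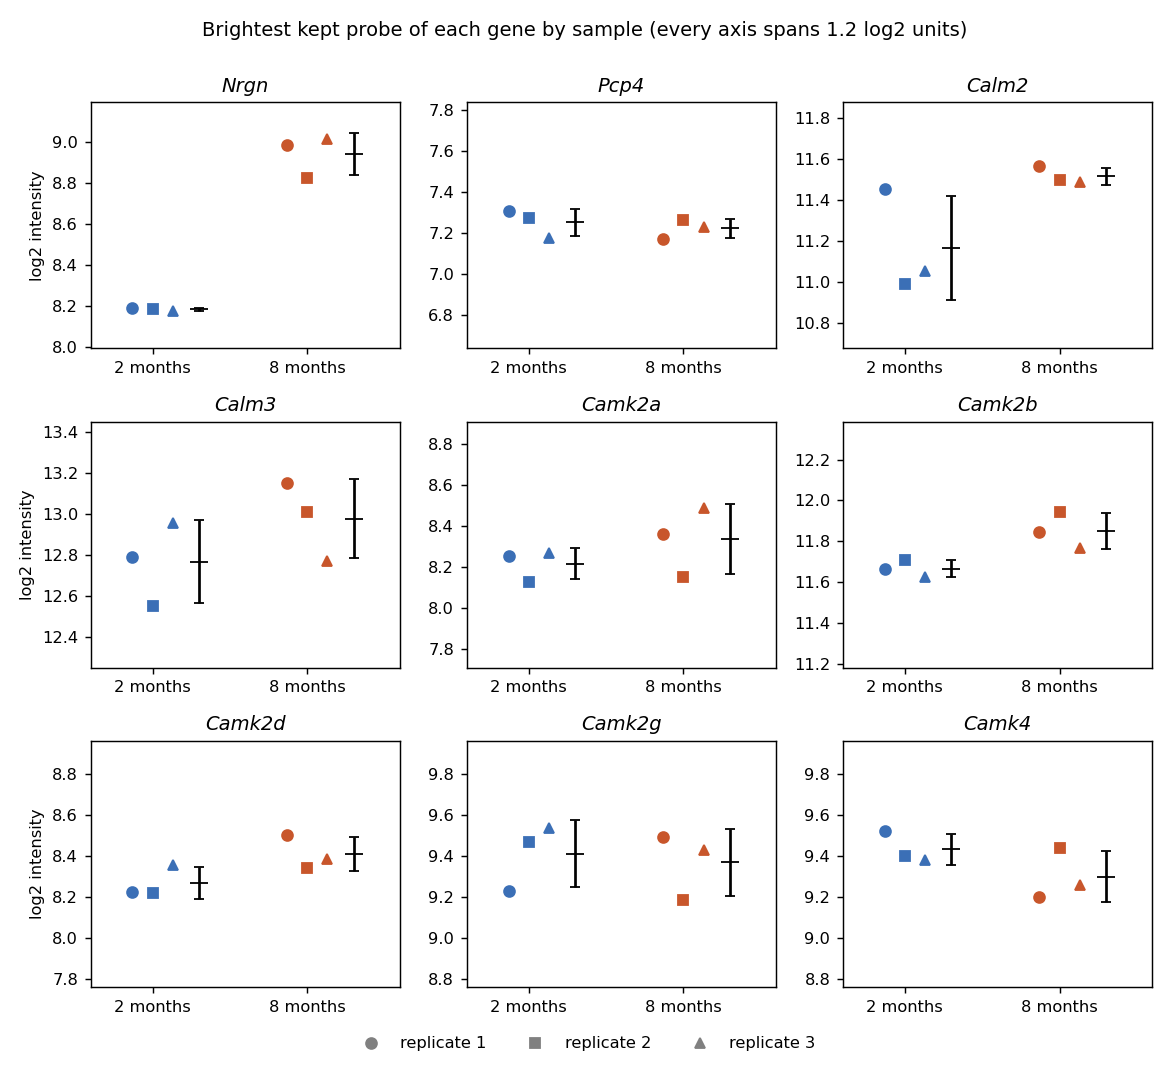
The log2 intensity of the brightest kept probe of each of the 9 genes is plotted for every sample, with 2 months in blue, 8 months in orange, symbols for the replicates, and black bars for the mean ± SD of 3 samples. Nrgn shows the widest gap between ages, from 8.18 to 8.94. The ages overlap for Pcp4, Camk2g and Camk4, whose means are lower at 8 months, and also for Calm3, Camk2a and Camk2d, whose means are higher.

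The sequence before the start of Nrgn is shown because the set was built around Nrgn, and that of Camk2b because it is the kinase gene whose ages did not overlap. Both are the 250 bases before a transcript start that RefSeq gives in build GRCm38.p6, read 5′ to 3′ on the minus strand, at chr9:37552746-37552995 and chr11:6065749-6065998. The RefSeq table held such a window for 5 of the 9 genes: Nrgn, Pcp4, Calm3, Camk2b and Camk2d. For Camk2b and Camk2d that start lies inside the RefSeq span of the gene, which begins farther upstream, so these windows do not precede the whole gene. Capitals mark matches to any of 4 motifs on either strand: the cyclic AMP response element bound by CREB (TGACGTCA), its first 5 letters alone (TGACG, which the full element also holds), the binding site of the Egr factors (GCGNGGGCG) and a TATA box (TATAAA).
Nrgn: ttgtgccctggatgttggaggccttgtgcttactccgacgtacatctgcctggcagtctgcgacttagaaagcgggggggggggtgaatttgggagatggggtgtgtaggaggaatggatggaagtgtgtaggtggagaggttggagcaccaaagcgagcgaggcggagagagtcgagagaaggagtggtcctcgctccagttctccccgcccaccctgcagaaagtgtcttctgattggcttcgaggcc
Camk2b: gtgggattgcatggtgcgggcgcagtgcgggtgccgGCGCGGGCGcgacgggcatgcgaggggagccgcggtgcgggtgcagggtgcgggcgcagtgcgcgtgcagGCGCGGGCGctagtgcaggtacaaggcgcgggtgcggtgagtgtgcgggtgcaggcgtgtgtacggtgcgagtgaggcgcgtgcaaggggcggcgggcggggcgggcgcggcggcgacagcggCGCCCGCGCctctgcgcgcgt
The Nrgn window held none of the 4 motifs, and its G and C content was 58.4%, against a median of 52.4% over 32851 windows of the same length. The Camk2b window held 3 matches to the Egr motif, whose first bases lie 214, 144 and 21 bases before the start, in a stretch of 78.4% G and C. Over all windows 4.7% held an Egr match, 1.55% the full response element, 17.8% the 5 letters and 12.4% a TATA box. The Calm3 window had 1 match to the 5 letters, 59 bases before its start, and the windows of Pcp4 and Camk2d had no match to any of the 4. A match is only a run of letters, and no binding was measured here.

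Pcp4, which codes for the other small IQ motif protein, also called PEP-19, was near background at both ages. Its probe was at 7.30, 7.27 and 7.18 in the 2 month samples and at 7.17, 7.26 and 7.23 in the 8 month samples. The ages overlapped, and only 4 of the 6 arrays had it above their median. The difference was −0.03 (SE 0.055, 95% interval −0.16 to 0.10), and it was 0.05 in the 4 samples alike in sex-linked genes. At this level its values do not show that the gene stayed the same.

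Calm2 and Calm3 are separate genes that code for the same calmodulin protein. Calm2 had 3 probes, all kept, and they disagreed. The brightest was at 11.46, 10.99 and 11.05 in the 2 month samples and at 11.57, 11.50 and 11.49 in the 8 month samples. The ages did not overlap, but 2 month replicate 1 lay only just below the 8 month values. The mean went from 11.17 ± 0.25 to 11.52 ± 0.042, a difference of 0.35 (SE 0.12, 95% interval 0.08 to 0.63). Leaving out 2 month replicate 1 gave 0.50, and leaving out 2 month replicate 2 gave 0.26. The second probe, at 8.50, 8.53 and 8.53 against 8.86, 8.73 and 8.94, also had no overlap and differed by 0.32. The third, annotated to Calm2 without an accession, was at 7.49, 7.59 and 7.62 at 2 months and at 7.43, 7.42 and 7.53 at 8 months. It ran the other way, with a difference of −0.11 and overlapping ages. With the mean of all 3 probes in place of the brightest, the difference of Calm2 was 0.19 (SE 0.048).

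Calm3 had 1 probe, at 12.79, 12.55 and 12.95 in the 2 month samples and at 13.15, 13.01 and 12.77 in the 8 month samples. The ages overlapped, since 8 month replicate 3 lay below 2 month replicates 1 and 3. The difference was 0.21 (SE 0.13, 95% interval −0.09 to 0.51). It was 0.10 without 2 month replicate 2, 0.12 without 8 month replicate 1, 0.31 without 8 month replicate 3 and 0.02 in the 4 samples alike in sex-linked genes. Calmodulin messages in bulk tissue come from all cells of the retina, and fewer cells of a type and less RNA per cell cannot be told apart in any value given here.

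The CaMKII subunits had 20 probes between them, 15 of them kept. The largest difference at a brightest probe was that of Camk2b, the beta subunit, which ties the kinase to actin in neurons. Its kept probe was at 11.67, 11.71 and 11.63 in the 2 month samples and at 11.84, 11.94 and 11.77 in the 8 month samples. All 8 month samples were above all 2 month samples. The mean went from 11.67 ± 0.042 to 11.85 ± 0.087, a difference of 0.18 (SE 0.059, 95% interval 0.05 to 0.32), or 1.14-fold. Leaving out 1 sample gave 0.14 to 0.23. The other probe of Camk2b did not pass the filter, at 7.12 to 7.18 in all samples.

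Camk2a, the alpha subunit of neurons, had 2 kept probes of 3. The brighter was at 8.25, 8.13 and 8.27 in the 2 month samples and at 8.36, 8.15 and 8.49 in the 8 month samples. The 8 month values spanned more than those of 2 months, and the ages overlapped because 8 month replicate 2 fell among the 2 month values. The difference was 0.12 (SE 0.091, 95% interval −0.09 to 0.33). Leaving out 8 month replicate 2 gave 0.21, 8 month replicate 3 gave 0.04 and 2 month replicate 2 gave 0.07, and the 4 samples alike in sex-linked genes gave 0.06. The dimmer kept probe had a difference of 0.07, and its 8 month values were likewise lowest in replicate 2, at 7.57 against 7.63 and 7.68.

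Camk2d, the delta subunit, which is widespread and prominent in heart, had 11 probes, of which 9 were kept. The brightest was at 8.22, 8.22 and 8.36 in the 2 month samples and at 8.50, 8.34 and 8.39 in the 8 month samples. The overlap came from 2 month replicate 3, which lay just above 8 month replicate 2. The difference was 0.14 (SE 0.065, 95% interval −0.01 to 0.30). A second probe, annotated to the same RefSeq transcript, was at 8.16, 7.99 and 8.11 against 8.21, 8.04 and 8.12, a difference of 0.03. The kept probes of Camk2d together ran from −0.07 to 0.14, and with their mean in place of the brightest the difference was 0.02 (SE 0.036). The brightest probe alone gave 0.05 in the 4 samples alike in sex-linked genes. At 2 of the kept probes, both close to the array median of 7.19, the ages did not overlap, with differences of 0.01 and −0.07 that went opposite ways.

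Camk2g, the gamma subunit, found in many tissues, had 3 kept probes of 4. The brightest was at 9.23, 9.47 and 9.54 in the 2 month samples and at 9.49, 9.19 and 9.43 in the 8 month samples. Both ages covered nearly the same range. The difference was −0.04 (SE 0.11, 95% interval −0.29 to 0.21), and its sign turned when 2 month replicate 3 or 8 month replicate 2 was left out, to 0.02 and 0.05. It was −0.13 without 2 month replicate 1, −0.11 without 8 month replicate 1 and −0.17 in the 4 samples alike in sex-linked genes. The other kept probes had differences of 0.04 and −0.05.

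Camk4, the gene of CaMKIV, was the member with the lowest difference. Its kept probe was at 9.52, 9.40 and 9.38 in the 2 month samples and at 9.20, 9.44 and 9.26 in the 8 month samples. The 8 month values of replicates 1 and 3 lay below all those of 2 months, while replicate 2 fell among them. The difference was −0.13 (SE 0.075, 95% interval −0.31 to 0.04). It was −0.20 without 8 month replicate 2, −0.08 without 8 month replicate 1 and −0.08 in the 4 samples alike in sex-linked genes. The other 2 probes of Camk4 stayed at background, between 7.11 and 7.19.

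At the brightest probes 6 of the 9 genes had positive differences and 3 negative ones, with a median of 0.14. Over all 12046 tested genes 50.2% were positive, and the median was 0.0005. Without Nrgn the median of the other 8 genes was 0.13, with a range from −0.13 to 0.35. The ages did not overlap for 3 of the 9 genes, Nrgn, Calm2 and Camk2b, each with higher 8 month values, beside 15% of all tested genes in either direction. Without Nrgn, which this contrast chose, the count was 2 of 8 genes. Among the 22 kept probes the ages did not overlap for 6, of which 5 were higher and 1 lower at 8 months. The share over all 22458 kept probes was 13.7%. The 6 include the probe of Nrgn, 2 probes of Calm2, and 1 higher and 1 lower probe of Camk2d, so they are not separate genes. Of these 22 probes, 9 had a mean under 7.5, close to background. The 7 probes that were not kept lay between 7.03 and 7.19, with differences from −0.03 to 0.03.

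**Figure D2:**
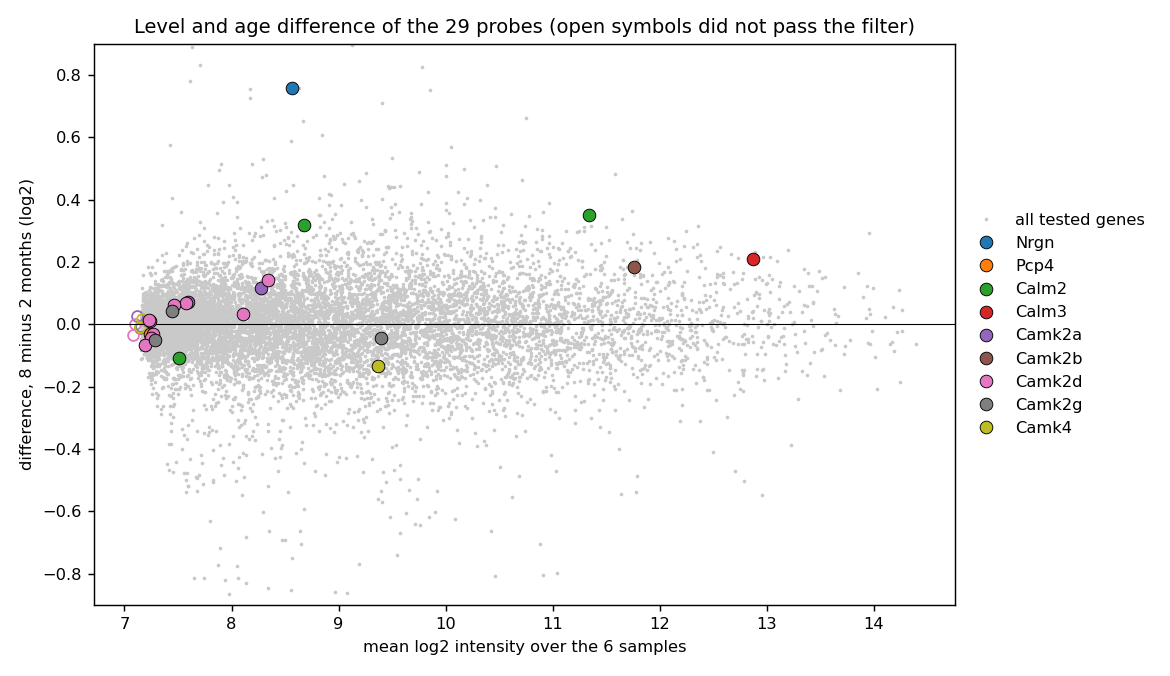
Each of the 29 probes is placed by its mean log2 intensity over the 6 samples (horizontal) and its difference between 8 and 2 months on the log2 scale (vertical), over the 12046 tested genes in grey, of which 28 with differences beyond 0.9 fall outside the plot. Open symbols are the 7 probes that were not kept, and the probe of Nrgn, at 0.76, stands above the probes of Calm2 at 0.35 and 0.32.

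Within the older group, replicate 2 was the lowest sample for 4 of the 9 genes, Nrgn, Camk2a, Camk2d and Camk2g. The share over all tested genes was 34.7%, and without Nrgn the count was 3 of 8. These are close, and nothing is read from the count. Replicate 2 was the highest sample for Camk2b, Camk4 and Pcp4. The ganglion cell list (7 of 11 genes tested; Pou4f2, Pou4f3, Nefl and Nefh were not) was lowest in the same sample, at −0.16 relative to its mean over the 6 samples, against 0.11 and 0.22 in 8 month replicates 1 and 3. Other lists differed in this. The microglia list was also lowest of the older samples in replicate 2, at −0.05, but the amacrine cell list was lowest in replicate 1, at 0.03. The bipolar cell and Müller glia lists were highest in replicate 2, at 0.02 and 0.07. The part of ganglion cell RNA in the values of the 9 genes was not tested.

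The rest of the pathway was examined through 50 further genes, of which 44 were tested. None passed over all genes in either direction (limma, Benjamini-Hochberg), and 4 had an unadjusted p below 0.05, beside 1257 of the 12046 tested genes. The differences of the 44 had a median of 0.02 and ran from −0.21 to 0.39, with 28 positive and 16 negative. Replicate 2 was the lowest 8 month sample for 22 of the 44 (50%), beside 34.7% of all tested genes, and this was not tested.

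The growth cone protein Gap43, like neurogranin a calmodulin-binding target of protein kinase C, had the largest difference of the 44. It was at 9.38, 9.66 and 9.69 in the 2 month samples and at 9.84, 9.89 and 10.16 in the 8 month samples. The ages did not overlap, but the spread within each was wide, and its difference of 0.39 (SE 0.11) did not pass (limma adjusted p = 0.286). Pcp4l1, a relative of Pcp4, was at 11.00 to 11.21 at 2 months and 11.02 to 11.14 at 8 months, with a difference of −0.05 (SE 0.072). Of the kinases that phosphorylate neurogranin, Prkca, which in the retina marks rod bipolar cells, was at 12.22, 12.40 and 12.15 at 2 months and at 12.09, 12.11 and 11.95 at 8 months. Its ages did not overlap, and its difference of −0.21 (SE 0.078) did not pass (limma adjusted p = 0.41), with −0.01 at its other probe. Prkcb had a difference of 0.07 (SE 0.074), and 0.40 at the probe that differed most. Camkk1 and Mef2a were not analysed here, and Cabin1 and Atf1 did not pass the filter.

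Genes that act on the kinases gave differences of both signs. Of the 8 tested genes for CaMK kinases, the CaMKI family and CaMKII inhibitors, 4 were positive and 4 negative, from −0.13 to 0.15, and none was called. Camkk2, which activates CaMKI and CaMKIV, had a difference of −0.13 (SE 0.09). Its target Camk1 was at −0.09 (SE 0.066), Camk1d at −0.07 (SE 0.096) and Camk1g at −0.09 (SE 0.046). Other kept probes went the other way, at up to 0.13 for Camk1, 0.01 for Camk1d and 0.01 for Camk1g. Camk1g, at 7.21 to 7.36, was close to background. In the same list Pnck and Camkv, named after their values were seen, were at 0.13 (SE 0.094) and 0.14 (SE 0.073). Camk2n1, an inhibitor of CaMKII, was at 0.15 (SE 0.091), with 12.78 to 12.87 at 2 months and 12.76 to 13.12 at 8 months. Its lowest 8 month sample was replicate 2, as for 3 of these 8 genes. The second inhibitor, Camk2n2, differed by 0.001 (SE 0.063).

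Calcineurin, the calmodulin-dependent phosphatase that opposes many of these kinases, was read through its subunits and regulators. At their brightest kept probes its 7 tested genes, 6 positive and 1 negative, ran from −0.02 to 0.11 and none was called. The catalytic subunits Ppp3ca, Ppp3cb and Ppp3cc had differences of 0.11 (SE 0.061), −0.02 (SE 0.05) and 0.03 (SE 0.085). The feedback inhibitors Rcan1 and Rcan2 had 0.07 (SE 0.078) and 0.03 (SE 0.059), with 0.23 at the probe of Rcan2 that differed most. Rcan1 is itself switched on by calcineurin.

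Among 14 calmodulin-dependent enzymes of other kinds, 9 were positive and 5 negative, from −0.09 to 0.22, with none called. The largest difference was that of Rasgrf1, named after its values were seen, at 0.22 (SE 0.15) with overlapping ages. The neuronal nitric oxide synthase Nos1 had a difference of 0.08 (SE 0.07). The adenylyl cyclase Adcy1 was at 0.15 (SE 0.12), with 8 month replicate 2 the lowest of all 6 samples at 8.10 and the other samples of that age at 8.60 and 8.51. Another cyclase, Adcy3, chosen after its values were seen, had no overlap, at 7.44 to 7.45 against 7.56 to 7.59, and a difference of 0.12 (SE 0.043, limma adjusted p = 0.384). These values are close to background, and only 1 of its 2 probes was kept.

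The transcription factors and coactivators that CaMK signalling reaches had 11 tested genes, 7 positive and 4 negative, between −0.14 and 0.05, with none called. Creb1, the CREB gene that CaMKIV phosphorylates at the protein level, had a difference of −0.10 (SE 0.076), with 0.05 at its other kept probe. Crem, its relative, had one of 0.02 (SE 0.075). The lowest was the CREB coactivator Crtc3, chosen after its values were seen, at −0.14 (SE 0.05, limma adjusted p = 0.404), with 0.04 at its other probe.

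**Figure D3:**
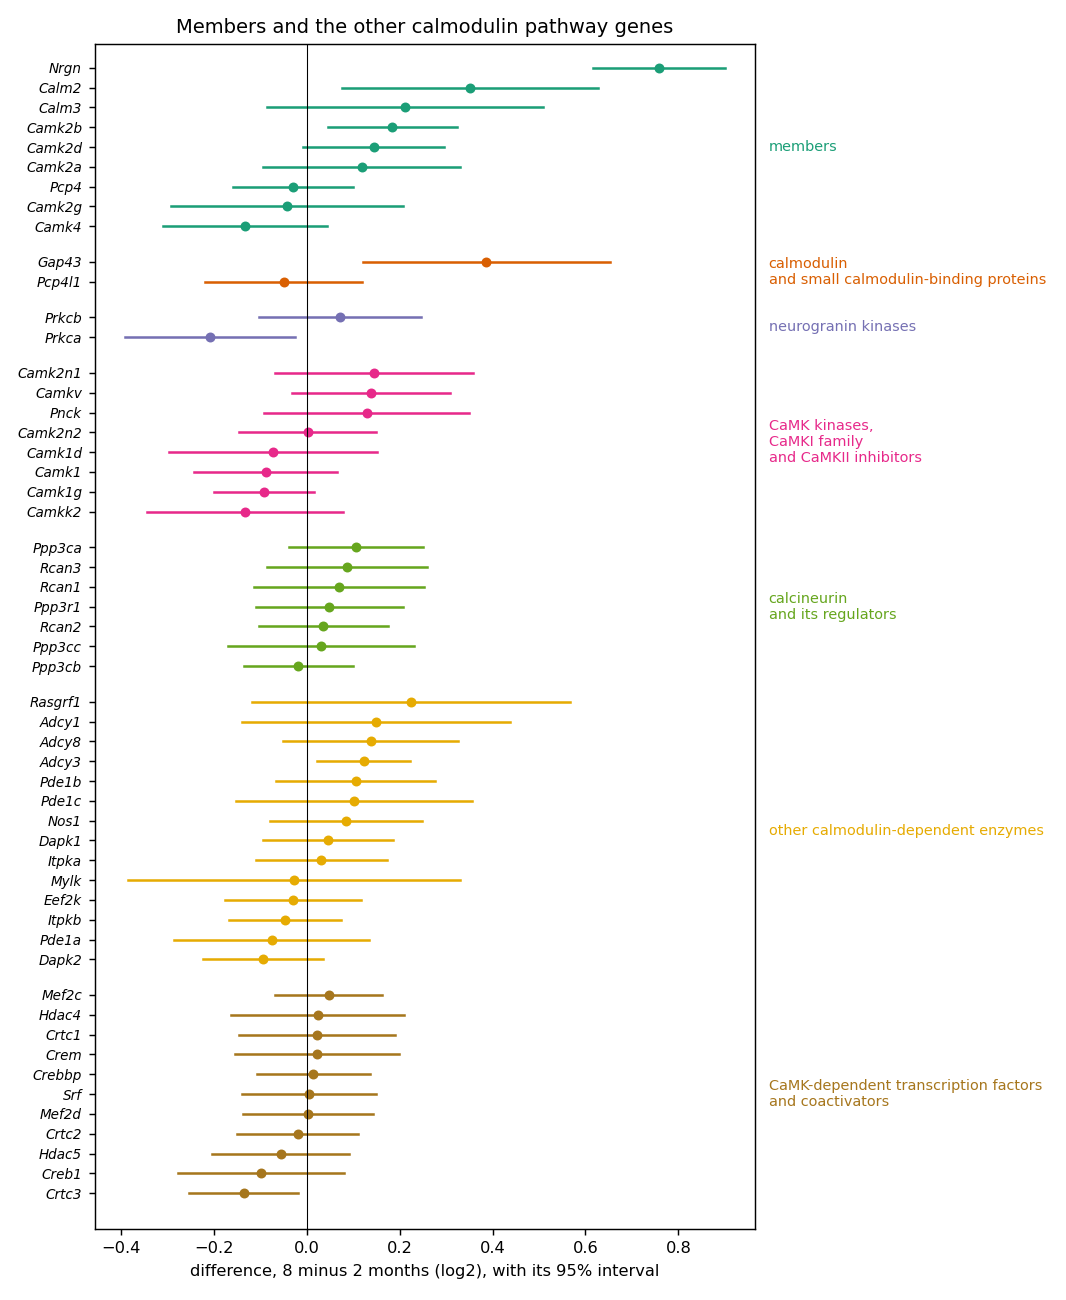
Differences between 8 and 2 months on the log2 scale are plotted for the 9 members and the 44 tested genes of the pathway list, grouped by role, with points for the estimate and bars for the 95% interval of limma over 6 samples. The interval of Nrgn, 0.62 to 0.90, lies to the right of the estimates of all other genes shown.

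The 5 tested genes whose pattern over the 6 samples was closest to that of Nrgn were Vip, Prss56, Gamt, Ngef and Gng4. Closeness was the root mean square of the differences between the log2 values of the 2 genes, each after subtraction of its own mean, and it was 0.049, 0.071, 0.074, 0.083 and 0.085, beside a median of 0.39 over 12045 genes. Vip, a neuropeptide of amacrine cells, was at 9.33, 9.39 and 9.37 in the 2 month samples and at 10.18, 10.08 and 10.32 in the 8 month samples. Like Nrgn it was lowest of the older samples in replicate 2 and highest in replicate 3. The serine protease gene Prss56 was at 7.12 to 7.27 at 2 months and 7.79 to 8.13 at 8 months. Gamt, of creatine synthesis, was at 7.73 to 7.91 and 8.35 to 8.66. Ngef, a neuronal guanine nucleotide exchange factor, was at 8.96 to 9.12 and 9.65 to 9.91, and Gng4, a G protein gamma subunit, at 8.19 to 8.39 and 8.80 to 9.12. All 5 were lowest of the older samples in replicate 2. Calm2 and Camk2b were much farther from Nrgn, at 0.26 and 0.31. Since a gene must differ between the ages by a similar amount to be close, the measure repeats the age difference that chose Nrgn. The values within each age enter the measure too. The low value shared in 8 month replicate 2 is therefore part of how the 5 genes were picked, and nothing is read from it.

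**Figure D4:**
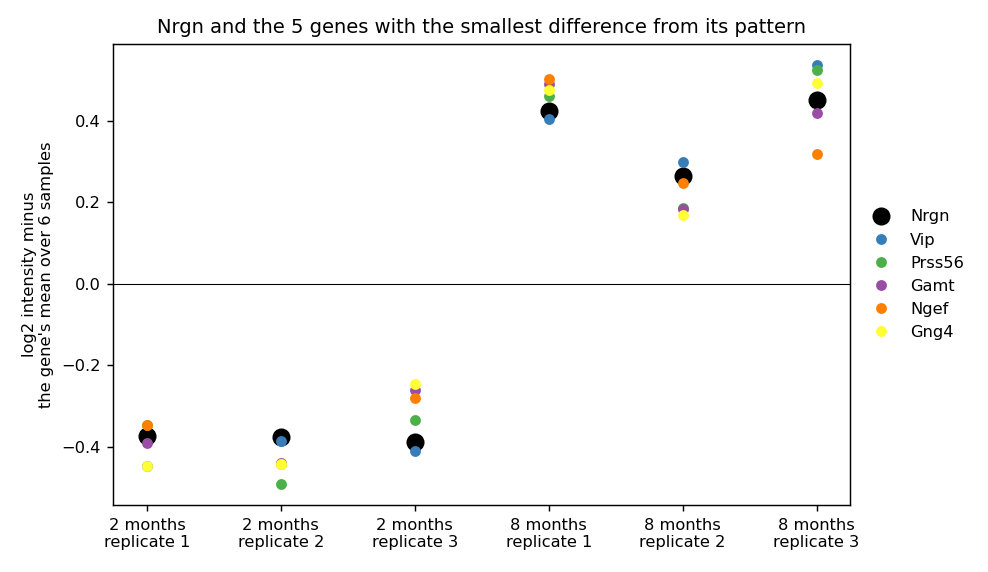
The log2 intensity of Nrgn (large black points) and of the 5 closest genes (coloured points) is plotted for each sample after subtraction of each gene's mean over the 6 samples. All 6 genes lie below 0 in the 3 samples of 2 months and above 0 in those of 8 months, with replicate 2 the lowest of the older samples for each gene. The 5 genes were picked for closeness to Nrgn over these same samples.

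Markers of the cells that the tissue could hold were read on the same arrays. Amacrine cell genes (10 of 11 tested) ran from −0.11 to −0.04 in the 2 month samples and from 0.03 to 0.13 in the 8 month samples, relative to the mean of the list over all samples, and 9 of the 10 had positive differences. Ganglion cell genes ran from −0.09 to −0.04 at 2 months and from −0.16 to 0.22 at 8 months, with 6 of 7 positive. The part of these cells in the difference of Nrgn was not tested. Horizontal cell genes (3 of 6 tested, without Onecut1, Calb1 and Sept4) were at 0.06 to 0.17 and −0.13 to −0.08, all 3 negative.

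Bipolar cell genes (8 of 10 tested) ran from −0.01 to 0.08 at 2 months and from −0.07 to 0.02 at 8 months. Müller glia genes (7 of 9 tested, without Kcnj10 and Clu) ran from −0.05 to 0.05 and from −0.08 to 0.07, so that neither list separated the ages. Microglia genes (9 of 10 tested, without Itgam) covered −0.17 to 0.13 and −0.05 to 0.03. Of the cone genes (8 of 9 tested, without Opn1sw) 2 fell in the fit over all genes, and the list ran from 0.36 to 0.78 at 2 months and from −1.09 to −0.41 at 8 months. Rod genes (7 of 9 tested) were at 0.02 to 0.36 and −0.36 to −0.15. The part of photoreceptor loss in the differences of the 9 genes was not tested. Outside the neural retina, muscle genes (without Ckm, Tnnt3 and Myh4) were at −0.38 to 1.14 and −0.43 to −0.25, pigment epithelium genes (10 of 10 tested) at −0.06 to 0.70 and −0.63 to −0.01, and red blood cell genes (3 of 8 tested) at 0.21 to 1.12 and −0.56 to −0.51. Without 2 month replicate 2, the sample where these 3 lists were highest, the difference of Nrgn was 0.76. Red blood cell genes were still at 0.28 and 0.21 in 2 month replicates 1 and 3, above all 8 month samples. The part of these tissues in the difference of Nrgn was not tested.

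**Figure D5:**
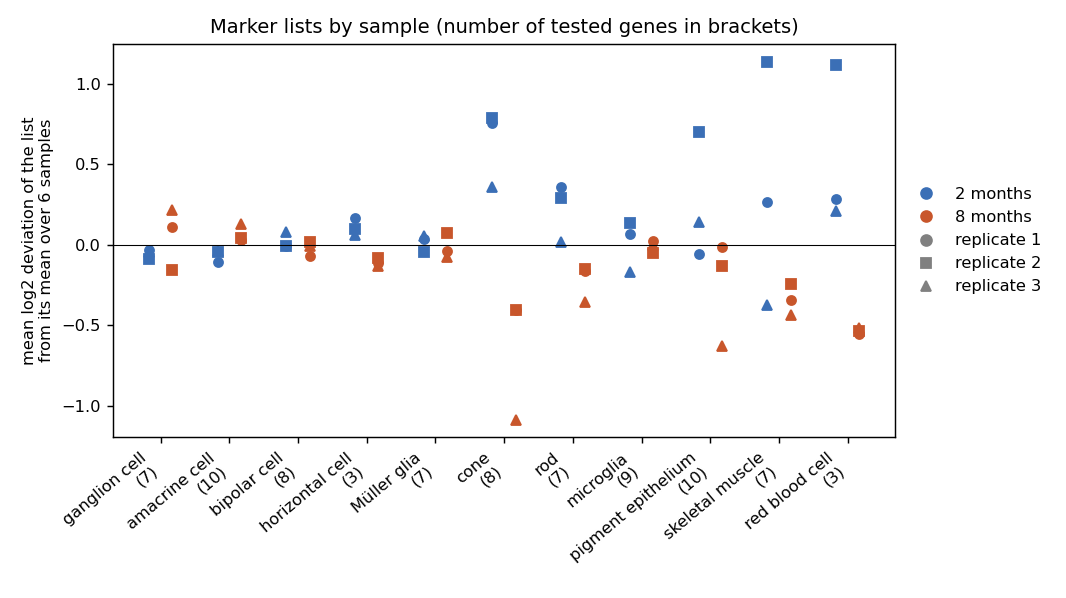
The mean log2 deviation of each marker list from its own mean over the 6 samples is plotted for every sample, with 2 months in blue, 8 months in orange and symbols for the replicates. Amacrine cell markers are higher and horizontal cell, cone, rod and red blood cell markers lower in all 3 samples of 8 months, and muscle and pigment epithelium markers reach 1.14 and 0.70 in 2 month replicate 2.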

How the data were processed

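The authors deposited 1 normalized log2 intensity per probe for each of 6 Illumina arrays, 45281 probes with no missing value. Their software, background correction and normalization were not given in the sources used here. After sorting, the 6 columns differed by at most 0.00307 at any rank. Whether the transform was a plain log2 was not tested. Probes were named through the platform annotation of GEO, which can be old (34885 with 1 symbol, 18 with several, 10378 with none), and RefSeq gene numbers updated 0 symbols. Groups and replicate numbers come from the sample titles.

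Kept probes exceeded the 50th percentile of their array on at least 3 arrays. Differences, 8 minus 2 months, came from lmFit and eBayes of limma 3.58.1 under R 4.3.3 without covariates, with Benjamini-Hochberg adjustment over 12046 genes and a threshold of 0.05. Intervals are limma's moderated 95% intervals. The members, gene lists and marker lists were chosen with earlier results of these data known. Every member probe, a listed part of the pathway genes, any pathway gene called and the 5 genes closest to Nrgn were named. Alternatives were 3 further normalizations, no filter, a 75th percentile filter, the mean of a gene's probes, an intensity trend, a replicate block and each sample left out. The comparison of the 4 samples alike in sex-linked genes was chosen after seeing the data. Promoter sequences are from RefSeq, build GRCm38.p6.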

Additional observations from a re-analysis of the deposited data

How the results depend on the processing

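Over all alternatives Nrgn stayed positive, from 0.72 to 0.82, which was also its range with 1 sample left out. The filters and the mean of a gene's probes could not change the difference of Nrgn, which has 1 probe. The intensity trend and the replicate block, with 1 sample per age in each number, could change only its SE. As the columns already differed by at most 0.00307 at any rank, repeated quantile normalization could hardly move Nrgn. In the 4 samples alike in sex-linked genes it was 0.77, where the lone 2 month sample is assumed to vary like the others. It was not past the threshold there or without replicate 1 of either age, fits with fewer samples, and since the contrast chose the gene this is given as a description. Leaving out 2 month replicate 1 or 2, which share a number in the descriptions, gave 0.76 each. Calm2, Calm3, Camk2a, Camk2b and Camk2d stayed positive and Camk4 negative throughout, although Camk2d came to 0.02 with the mean of its kept probes. Camk2g ran from −0.135 to 0.048 with 1 sample left out, and Pcp4 turned to 0.045 in the 4 samples. Pcp4 did not pass the stricter filter and has no value there. Genes called, 19 higher and 8 lower, became 5 and 2 without a filter, 38 and 35 with the stricter one, 44 and 48 with an intensity trend and 5 and 2 in the 4 samples. With 1 sample left out 2 to 12 were higher and 0 to 19 lower. The lowest counts, 2 and 0, were without 2 month replicate 1, where 1142 genes had an unadjusted p below 0.05. Each of the 6 samples moved a count by over 1.5 times. No pathway gene was called under any alternative run.

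With the replicate number as a replicate block, 14 genes were higher and 18 lower, and no pathway gene's call changed. Nrgn was at 0.76, a value that this block cannot change. Same-numbered samples correlated in their deviations at 0.0239, 0.139 and 0.16, so the numbers of the titles were not taken as pairs, although every sample correlated best with its own number. Nearness to background limits Pcp4 and the dim probes of Camk2d, Camk2g and Camk4.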
